A study of Mus musculus with 3 samples.

Results

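The Setd1a peaks described here lie in the flank of coding genes, a stretch of a few kilobases around the start site that holds the outer promoter and, at many genes, part of the first intron. A peak was taken when its nearer edge lay more than 1000 and at most 3000 bp, on either side, from the closest transcription start site (TSS) of a protein-coding transcript. On chromosomes 1 to 19 this held for 242 of 6911 peaks, or 3.50%, and the whole deposited list had 6969 peaks. Of the other peaks on these chromosomes, 3032 overlapped a coding TSS, 1112 lay 1 to 1000 bp away and 2525 lay over 3000 bp away.

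The peaks came from CUT&RUN, in which an antibody tethers a nuclease to chromatin in permeable cells, and the fragments it releases are sequenced. The cells were adult neural stem cells, labelled neural progenitor cells (NPCs), taken from the dentate gyrus of mice aged 7 to 8 weeks that carried Hopx-CreERT2, Setd1a fl/fl and H2B-GFP. All 3 libraries were labelled WT and were harvested on day 5 in quiescence medium, with BMP4 at 20 ng/ml and FGF2 at 20 ng/ml and without EGF. There were 2 libraries with a Setd1a antibody and 1 with rabbit IgG. The list holds peaks present in both Setd1a libraries. These cells thus carried floxed Setd1a alleles and an inducible Cre driven by Hopx, and the labels name no induction.

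Each peak of the deposited list was given by its chromosome, start and end alone. The list held no peak height, no value per library and no value for IgG, so sequencing depth was unknown and neither the spread between the 2 cultures nor any difference between groups of peaks could be tested. Counts, shares and medians below are descriptions of 1 list, and their 95% Wilson intervals cover counting error alone, as if peaks were independent draws. The list carries no expression values, so the labelled cell type was not checked against its marker genes. Since the cells were analysed in bulk, a signal in a few cells and a weaker signal in all of them cannot be told apart.

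Setd1a is a catalytic subunit of a COMPASS complex, which methylates lysine 4 of histone H3. Its complex is known for the trimethylated mark at active promoters, most of which lie in CpG islands, where CpG dinucleotides escape the loss that methylation brings to the rest of the genome. Farther from the start site, sequence is usually poor in CpG, and monomethylated lysine 4 is known for marking enhancers there.

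Sequences of 8 of these peaks show the range of CpG that the values below turn on. They are read 5′ to 3′ on the plus strand of mm10, in lower case with each CpG in capitals. The first 4 are whole peaks, at Wnt5a (chr14:28506295-28506551), Junb (chr8:84976595-84976864), Hes6 (chr1:91414443-91414676) and Ephx1 (chr1:181015790-181016054). The other 4 are the central 120 bases of both peaks at Hes1 (chr16:30063921-30064040 and chr16:30067016-30067135) and of both peaks at Ccnd1 (chr7:144941633-144941752 and chr7:144937813-144937932).
Wnt5a: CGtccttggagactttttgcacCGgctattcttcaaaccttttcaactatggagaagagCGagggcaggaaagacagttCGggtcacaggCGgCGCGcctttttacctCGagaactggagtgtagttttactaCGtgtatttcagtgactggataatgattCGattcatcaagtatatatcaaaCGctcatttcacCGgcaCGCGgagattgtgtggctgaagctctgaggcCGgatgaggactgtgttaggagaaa
Junb: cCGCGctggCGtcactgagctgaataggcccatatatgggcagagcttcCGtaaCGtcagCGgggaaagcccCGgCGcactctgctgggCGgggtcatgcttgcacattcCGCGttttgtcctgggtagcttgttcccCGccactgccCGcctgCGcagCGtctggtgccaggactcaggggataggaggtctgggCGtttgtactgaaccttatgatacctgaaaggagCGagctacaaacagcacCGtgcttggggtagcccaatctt
Hes6: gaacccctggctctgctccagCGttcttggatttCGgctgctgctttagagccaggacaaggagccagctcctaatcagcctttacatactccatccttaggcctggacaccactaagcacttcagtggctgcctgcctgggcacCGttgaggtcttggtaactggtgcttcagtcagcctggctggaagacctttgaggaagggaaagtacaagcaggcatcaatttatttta
Ephx1: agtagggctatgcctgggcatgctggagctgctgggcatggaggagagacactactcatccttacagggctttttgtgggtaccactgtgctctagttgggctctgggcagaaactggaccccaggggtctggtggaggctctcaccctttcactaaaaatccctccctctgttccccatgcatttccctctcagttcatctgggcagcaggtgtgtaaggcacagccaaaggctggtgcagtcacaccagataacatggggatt
Hes1 upstream: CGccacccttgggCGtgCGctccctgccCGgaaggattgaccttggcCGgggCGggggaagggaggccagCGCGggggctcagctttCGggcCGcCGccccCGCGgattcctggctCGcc
Hes1 downstream: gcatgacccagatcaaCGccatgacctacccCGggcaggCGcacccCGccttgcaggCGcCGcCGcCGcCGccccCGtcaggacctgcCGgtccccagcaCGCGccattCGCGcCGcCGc
Ccnd1 upstream: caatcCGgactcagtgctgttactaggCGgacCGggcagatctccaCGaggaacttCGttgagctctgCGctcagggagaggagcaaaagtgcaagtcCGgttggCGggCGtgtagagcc
Ccnd1 downstream: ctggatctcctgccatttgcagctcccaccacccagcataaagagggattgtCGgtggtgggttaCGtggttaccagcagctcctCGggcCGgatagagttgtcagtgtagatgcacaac
The whole peak at Wnt5a held 15 CpGs in 257 bases and had the highest ratio of observed to expected CpG of all 242 peaks. This ratio sets the CpG count against the one that the numbers of C and G in the same bases would give. The peak at Junb held 18 CpGs in 270 bases, and that at Hes6 3 in 234. The peak at Ephx1 held 0 CpGs in 265 bases. In the central 120 bases, the peaks at Hes1 held 14 CpGs upstream of the start site and 17 downstream, and those at Ccnd1 held 9 and 4.

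The peaks of the flank were found on both sides of the start site. Downstream of their nearest coding TSS lay 136 of 242 (56.2%, 95% interval 49.9 to 62.3), and upstream 106 (43.8%). The distance from the nearer edge had a median of 1816 bp, with quartiles of 1329.5 and 2377.25 bp, and ran from 1002 to 2994 bp. Upstream peaks had a median distance of 1833.5 bp and downstream peaks one of 1811.5 bp. Up to 2000 bp there were 139 peaks, and farther out, up to 3000 bp, there were 103. In steps of 500 bp going away from the start site, the counts were 35, 28, 24 and 19 upstream and 41, 35, 35 and 25 downstream.

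**Figure D1:**
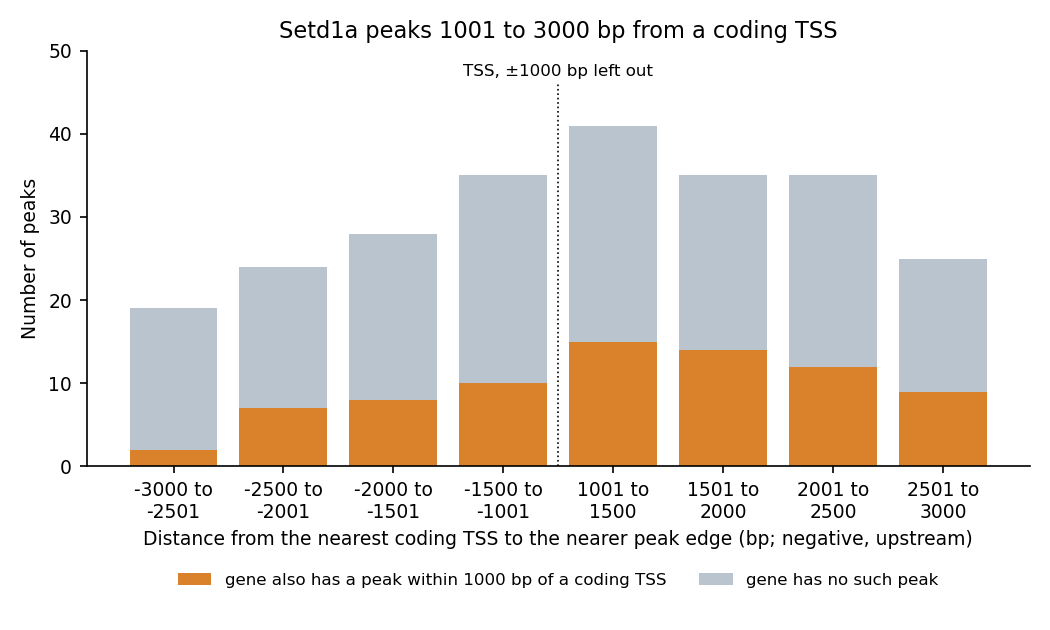
Number of Setd1a peaks (vertical axis) by distance from the nearest coding TSS to the nearer peak edge (horizontal axis, in steps of 500 bp, negative upstream). Orange bars are peaks whose gene also had a peak within 1000 bp of one of its coding TSSs and grey bars are the rest; the counts were highest, 35 and 41, in the steps nearest to the start site on each side.

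At the inner edge of the window, the last peaks inside were near Anp32a (1002 bp), Mxi1 (1005 bp) and Ube2ql1 (1007 bp). The closest outside it were near Sbno2 and Ttyh3 (996 bp each) and Inpp5k (1000 bp). At the outer edge, the last inside were near Tmc5 (2977 bp), Fstl3 and Shisal1 (2994 bp each), and the first outside were near Jmy (3004 bp), Polrmt (3014 bp) and Barx1 (3017 bp). Peaks on either side of an edge thus differed little in distance, and the window is a convention rather than a gap in the list.

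The most frequent place of these peaks was an intron of the nearest coding gene, which held 115 of the 242 (47.5%). Outside coding genes lay 64 (26.4%). Each peak was put in a single class, the first that applied of coding exon, untranslated exon, noncoding exon and the places outside exons. By this order 29 peaks touched a coding exon, 11 an untranslated exon and 21 a noncoding exon, and 2 lay inside another coding gene. The counts of later classes thus leave out peaks already placed in an earlier one. Exons of any gene were counted, not those of the nearest coding gene alone. Of the 136 downstream peaks, 77 (56.6%) had their midpoint in intron 1 of the nearest coding transcript, 30 in a later intron, 4 in exon 1 and 10 in a later exon. The other 15 were past the end of that transcript. Upstream of the nearest coding TSS, 59 of 106 peaks lay outside coding genes, but 24 lay in an intron of the same gene, upstream of an internal start site.

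By chromosome, the peaks of the flank made up between 1.41% of all peaks (4 of 284, chromosome 13) and 5.76% (17 of 295, chromosome 15). The most, 26 of 525, were on chromosome 7, and chromosome 11 had 23 of 532. Per megabase, chromosome 11 came first with 0.188 and chromosome 13 last with 0.0332. These counts are small, and no difference among chromosomes was tested.

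In width the peaks of the flank resembled their neighbours. Their median width was 404 bp, with quartiles of 297 and 596 bp and a range of 233 to 1545 bp. The median was 383.5 bp for peaks at 1 to 1000 bp and 387 bp for those beyond 3000 bp, against 603 bp for peaks over a coding TSS. A width of 1000 bp or more was reached by 8 of 242 (3.31%), by 13.5% of the peaks over a coding TSS and by 7.76% of all peaks.

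The widest peak, 1545 bp at chr3:61363393-61364937, lay downstream of a coding TSS of B430305J03Rik and also covered a curated RefSeq start site of Rap2b, a small GTPase gene. The next was 1270 bp wide at Gm11168 (chr9:3006772-3008041), and 95.8% of its bases were marked as repeats. Then came Cic, which encodes a transcriptional repressor downstream of receptor tyrosine kinases, with 1261 bp. Narrower were Shc3 (1186 bp), Marcks (1149 bp), Plxdc1 (1106 bp), Anp32a (1093 bp), Borcs6 (1009 bp), Parvb (953 bp) and Dysf (951 bp). Of these 10, Cic, Shc3, Marcks and Anp32a overlapped the start of a noncoding transcript.

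CpG content set the peaks of the flank apart from those at start sites more than width did. Their median ratio of observed to expected CpG was 0.289, with quartiles of 0.167 and 0.525. It was 0.838 for peaks over a coding TSS, 0.737 for those at 1 to 1000 bp and 0.208 for those beyond 3000 bp. GC content followed the same order, with a median of 53.5% in the flank against 64.2%, 61.7% and 49.7%. A GC content of at least 50% together with a ratio of at least 0.6, thresholds used for CpG islands, was met by 48 of 242 peaks (19.8%, 95% interval 15.3 to 25.3). With 1 start site per gene, which changes the peaks in the window, 34.4% met them. The same thresholds were met by 90.5% of peaks over a coding TSS, 66.8% at 1 to 1000 bp and 6.34% beyond 3000 bp. A ratio under 0.3 was found in 124 of the 242 (51.2%) and in 29.6% of all peaks.

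The change was spread over the window, though not a fall at every step, and did not stop at its edges. In the step from 751 to 1000 bp the median ratio was 0.55 and 35.6% of peaks met the island thresholds. From there to 1250 bp it was 0.441, with 33.3% of 48 peaks, and from 1501 to 2000 bp 0.355, with 23.8% of 63. From 2501 to 3000 bp it was 0.236, with 9.09% of 44, and from 3001 to 3500 bp it was 0.257, with 11.3% of 53. By this measure the outer part of the window was closer to the distal peaks than to the inner part. Upstream and downstream peaks met the thresholds at almost equal rates, with 21 of 106 (19.8%) and 27 of 136 (19.9%).

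**Figure D2:**
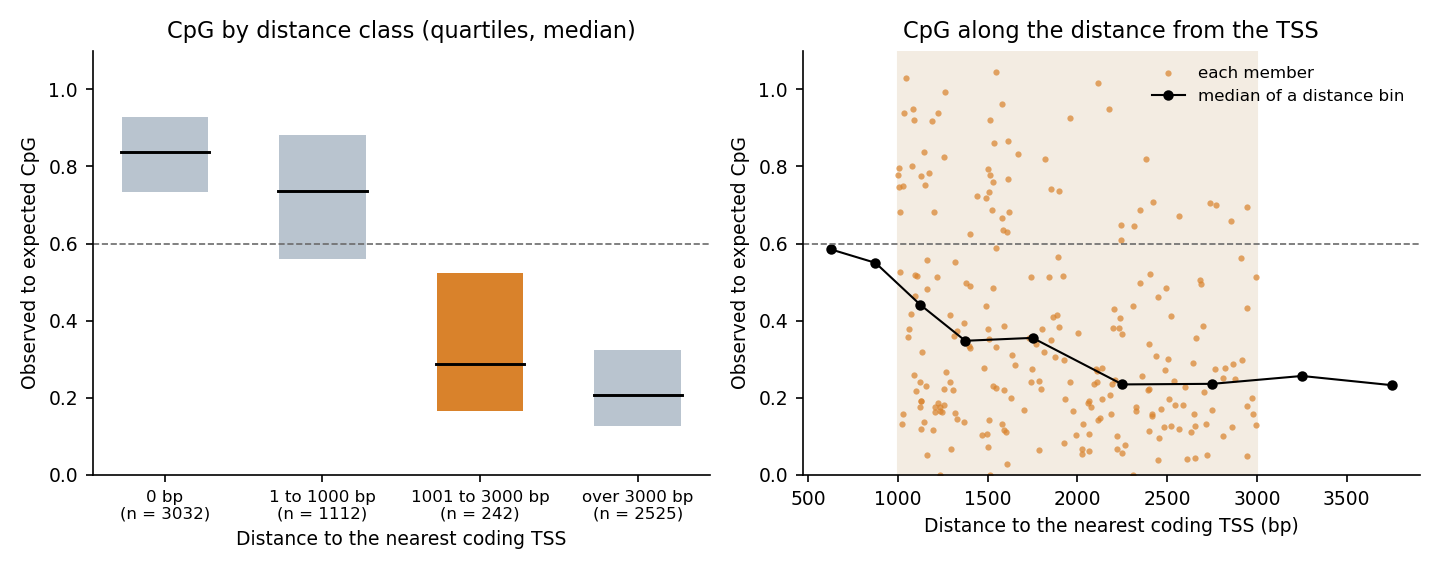
Ratio of observed to expected CpG (vertical axes) by distance class (left; boxes from the lower to the upper quartile, black line at the median, orange for the 242 peaks of the flank) and along the distance in bp (right; 1 point per peak of the flank, black points for medians of distance steps, shading for the window). The dashed line is the island threshold of 0.6; the median fell from 0.838 over a coding TSS to 0.208 beyond 3000 bp, with 0.289 in the flank.

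The 5 highest ratios were those of the peaks near Wnt5a, a Wnt ligand (1.04), Anp32b, a histone chaperone (1.03), Ptch1, the hedgehog receptor (1.02), Nr2f2, a nuclear receptor (0.994), and Ppp1r15a, a phosphatase regulator of the stress response (0.963). Because the peaks at Wnt5a and Ppp1r15a were under 50% in GC (47.9% and 47.8%), neither met the island thresholds. At the other end, 3 peaks held no CpG at all, near Ephx1, Inafm2 and Nadk, followed by Metrnl (0.027) and Trpm5 (0.04).

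Few of these peaks were built of repeats. Over 50% repeat-masked bases were found in 7 of 242 (2.89%), near Olfr1413, Ankrd52, Nadk, Mfap5, Alpk3, Gm11168 and Gm10718. The share was 1.95% of all peaks, 0.297% over a coding TSS, 1.35% at 1 to 1000 bp and 4.12% beyond 3000 bp.

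A peak at the start site of the same gene was listed for fewer than 1 in 3 flank peaks, although more often than for coding genes at large, of which 22.0% had one. Of the 242, 165 (68.2%, 95% interval 62.1 to 73.7) were nearest to a gene with no listed peak within 1000 bp of any of its coding TSSs, and 77 (31.8%) to a gene that had one. When that peak had to cover a coding TSS, the count was 47 (19.4%). Since the list shows only called peaks, the first group may still have signal at the start site. The share with a start-site peak was 27 of 106 upstream (25.5%) and 50 of 136 downstream (36.8%). Where there was one, the gap to it had a median of 1682 bp, with quartiles of 1075 and 2347 bp. Another peak of any kind lay within 5000 bp of 80 of the 242 (33.1%), compared with 11.7% of all peaks, 9.1% over a coding TSS, 23.7% at 1 to 1000 bp and 7.52% beyond 3000 bp. The window lies next to start sites, where most peaks are, and the share was not corrected for this.

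With and without a start-site peak, the peaks of the flank were alike in CpG thresholds and somewhat unlike in width. Those of genes with a start-site peak had a median width of 456 bp and a median ratio of 0.34, and 16 of 77 (20.8%) met the island thresholds. Those of genes without one had 393 bp and 0.271, and 32 of 165 (19.4%) met them. The peaks that met the thresholds were wider, with a median of 488.5 bp against 388 bp for the rest.

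The nearest coding genes of the 242 peaks numbered 233, and 9 of them had 2 peaks each. Among the 20722 protein-coding genes on these chromosomes, 232 were the nearest gene of such a peak, which is 1.12% of them; Casp16-ps, whose gene record is not of that type, was the other. A peak within 1000 bp of a coding TSS was present at 4560 of the protein-coding genes (22.0%). Genes of 13 lists chosen for neural stem cells, with earlier results of these data known, were counted beside this background. In any list, 31 of 595 genes (5.21%) had a peak in the flank and 237 (39.8%) one within 1000 bp. A peak over 3000 bp away was counted for 127 (21.3%), against 9.75% of all protein-coding genes. The listed genes were thus above the background for each of these kinds of peak, not for those of the flank alone. Of these 31 genes, 17 also had a start-site peak.

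**Figure D3:**
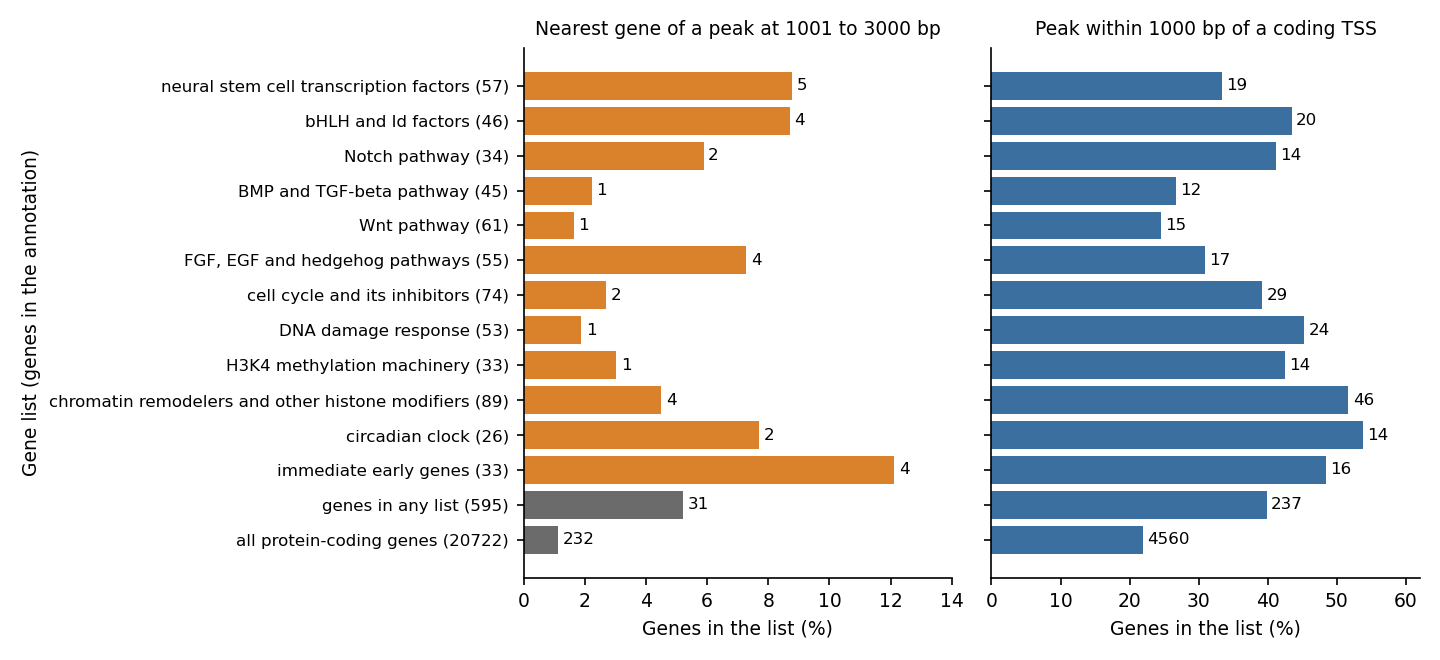
Share of the genes of each list (horizontal axes, %; number of genes in the annotation in brackets) that were the nearest coding gene of a flank peak (left) or had a peak within 1000 bp of a coding TSS (right), with the number of genes at the end of each bar. Grey bars are all lists together and all protein-coding genes; the immediate early genes had the highest share in the left panel, 4 of 33, against 1.12% of all protein-coding genes.

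Of the transcription factors that define neural stem cells and their lineages, 5 of 57 (8.77%) were nearest to one, Foxj1, Nfib, Nr2f2, Olig2 and Sox6. The peak near Foxj1, which drives the making of motile cilia, was 945 bp wide and lay 2360 bp downstream in the gene, with a coding exon in it and a ratio of 0.257. Near Olig2, a basic helix-loop-helix factor of the oligodendrocyte lineage, a peak of 394 bp lay 1890 bp upstream and had a ratio of 0.566. Both genes also had a peak within 1000 bp of a coding TSS.

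The peaks of the other 3 factors lay upstream of internal start sites, in introns or noncoding exons, and these genes had no listed peak within 1000 bp of a coding TSS. For Nfib, of the nuclear factor I family, the peak was 566 bp wide, lay 1525 bp from the nearest coding TSS and had a ratio of 0.687 with a GC content of 46.5%. For Nr2f2 it was 568 bp wide, lay 1260 bp away and met the island thresholds. For Sox6, of the SoxD family, it was 483 bp wide, lay 2947 bp away, met the thresholds and covered a predicted start site of Sox6 in RefSeq.

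Basic helix-loop-helix and Id factors, which hold or release neuronal differentiation, had 4 of 46 genes (8.70%) with a flank peak, Hes1, Hes6, Id2 and Mxi1. Hes1, the repressor that Notch signalling induces, had 1 on each side of its start site and none within 1000 bp of it. The upstream one, chr16:30063699-30064263, was 565 bp wide, began 1077 bp from the start site and had a GC content of 75.8% and a ratio of 0.802. The downstream one, chr16:30066878-30067275, was 398 bp wide, began 1538 bp from it in the last exon, and had 70.4% and 0.861. Both met the island thresholds. Farther out, peaks of the list lay 7944 bp upstream and 5237 bp downstream of the same start site.

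Hes6, which counteracts Hes1, had a narrow flank peak of 234 bp, 1221 bp upstream, with a ratio of 0.186 and a start-site peak 563 bp away. Id2, which binds E proteins and keeps them from DNA, had a start-site peak and a flank peak of 461 bp at chr12:25092929-25093389, past the 3′ end of the gene. The peak of Mxi1, a partner of Max that opposes Myc, lay in intron 1, 1005 bp from a coding TSS, and met the island thresholds, and no start-site peak was listed for this gene.

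Of the Notch pathway, 2 of 34 genes (5.88%) had such a peak. Both also had a start-site peak, as had 14 of the 34 (41.2%). The ligand gene Jag1 had a flank peak of 406 bp in an intron, 1320 bp downstream, with a ratio of 0.553. In the receptor gene Notch1 the peak was 435 bp wide and lay 2138 bp downstream of an internal coding TSS, itself covered by another peak, and had a ratio of 0.197. The receptor gene thus had its peaks inside the gene, 12450 to 16292 bp from its most upstream coding TSS.

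Among immediate early genes, which respond to growth factors and activity within minutes, 4 of 33 (12.1%) had a flank peak, Ier2, Jun, Junb and Srf. Each of these 4 also had a start-site peak, as had 16 of the 33 (48.5%) and 22.0% of all protein-coding genes. Ier2 had 2 upstream, 344 bp wide at 1258 bp and 296 bp wide at 1897 bp, with ratios of 0.825 and 0.384. Only the nearer of them met the island thresholds. Jun, a subunit of AP-1, had a peak over the start site, another 676 bp upstream and the flank peak 1313 bp upstream, with ratios of 0.783, 0.811 and 0.361 in this order. The flank peak of Junb, 270 bp wide, lay 1854 bp downstream and had a ratio of 0.743. That of Srf, which binds serum response elements, lay 1855 bp upstream of an internal start site, with 0.351.

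**Figure D4:**
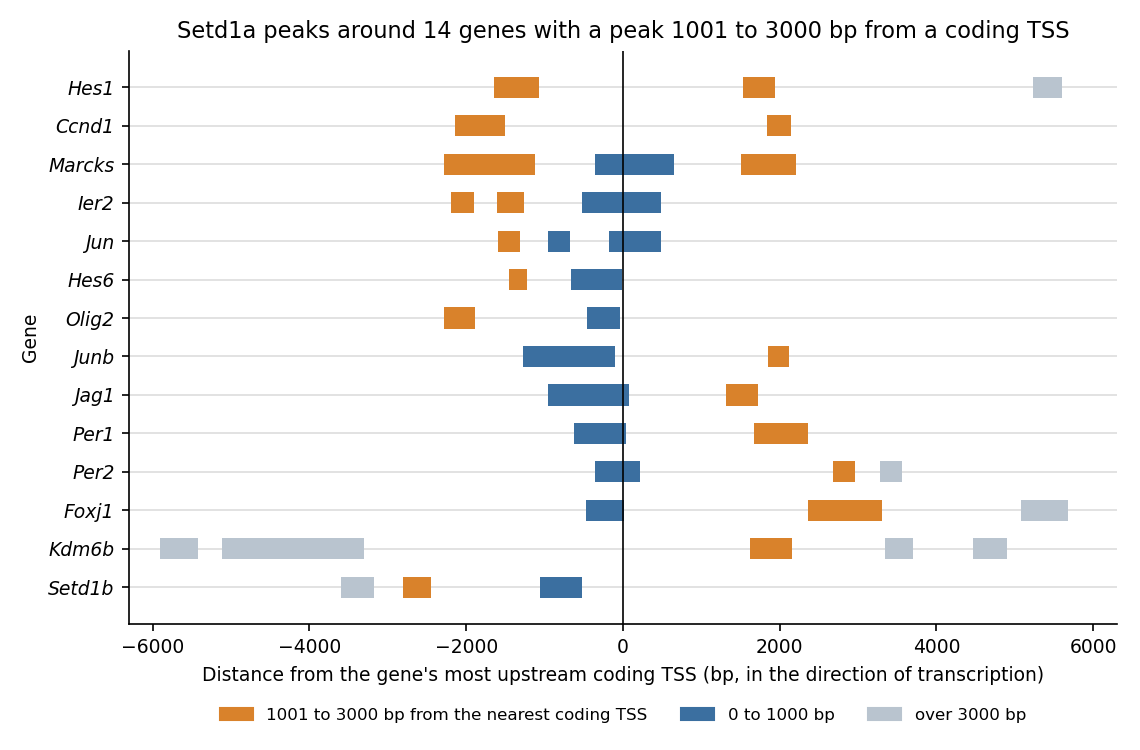
Setd1a peaks within 6000 bp of the most upstream coding TSS (vertical line at 0) of 14 genes, drawn to scale along the direction of transcription (horizontal axis, bp) and coloured by distance to the nearest coding TSS. Hes1, Ccnd1 and Kdm6b had orange peaks, those of the flank, and no blue peak within 1000 bp; Ier2 and Marcks had 2 orange peaks each and a blue one over the start site.

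Of the circadian clock, 2 of 26 genes (7.69%) had a flank peak, the repressors Per1 and Per2. Both had a start-site peak as well, as had 14 of the 26 (53.8%). The flank peak of Per1 was 696 bp wide at chr11:69096884-69097579, inside the gene and 1369 bp upstream of an internal coding TSS, with a ratio of 0.393. That of Per2 was 274 bp wide in intron 1, 2683 bp downstream, with 0.506, and a further peak followed it 3283 bp from the start site.

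Growth factor and hedgehog signalling contributed 4 of 55 genes (7.27%), Dusp4, Spred1, Spred2 and Ptch1. These 4 encode inhibitors of their pathways, and the share of inhibitors among the 55 was not counted. The peak of Dusp4, a phosphatase of MAP kinases, was 275 bp wide in intron 1, 1403 bp downstream, with a ratio of 0.624. Spred1 and Spred2, which restrain signalling from Ras to Raf, had peaks 1290 bp upstream and 1549 bp downstream, with 0.414 and 0.33. Ptch1 had a peak of 513 bp, 2113 bp upstream of an internal start site, with 1.02, over the start of the noncoding gene A930032L01Rik. Only Ptch1 of these 4 had a start-site peak in the list, by the coding start sites of GENCODE, and 17 of the 55 (30.9%) had one. A curated RefSeq start site of Spred1 lay 987 bp from its flank peak.

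Of the remaining lists, chromatin regulators had 4 of 89 (4.49%). They were Arid2 and Smarcd3, which encode SWI/SNF subunits, Dot1l, which methylates lysine 79 of histone H3, and Kdm6b, which demethylates lysine 27. The cell cycle list had 2 of 74 (2.70%), Ccnd1 and Mdm2, and the H3K4 methylation list 1 of 33 (3.03%), Setd1b. BMP and TGF-beta signalling had 1 of 45 (2.22%), the receptor gene Bmpr1b, the DNA damage response 1 of 53 (1.89%), the excision repair gene Ercc1, and the Wnt pathway 1 of 61 (1.64%), Wnt5a. None of the 7 annotated genes in the list of those named for Setd1a binding had one. Shares of 1 or 2 genes rest on very few counts, beside a background of 1.12%.

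Several of these loci held more than the flank peak. Around Kdm6b, 5 peaks lay within 6000 bp of the most upstream coding TSS and none within 1000 bp; the flank peak was 542 bp wide, in intron 1, with a ratio of 0.681. Setd1b, a paralogue of Setd1a, had a flank peak of 361 bp, 2450 bp upstream, next to the start of the noncoding gene AI480526. This peak also covered a predicted RefSeq start site of another coding gene, Rhof. On either side of it, peaks lay 526 and 3176 bp upstream of Setd1b. At Arid2 and Dot1l the flank peaks lay 1492 and 2468 bp upstream, with ratios of 0.719 and 0.172 and start-site peaks 480 and 2075 bp away.

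Ccnd1, which encodes cyclin D1, was like Hes1 in having a peak on each side of its start site and none within 1000 bp. The upstream peak, chr7:144941379-144942007, was 629 bp wide and lay 1510 bp away, with a GC content of 56.6% and a ratio of 0.735. The downstream peak, chr7:144937721-144938026, was 306 bp wide, touched a coding exon 1843 bp away, and had 57.8% and 0.514. The upstream one met the island thresholds and the downstream one did not. The flank peak of Mdm2, the ubiquitin ligase of p53, was 634 bp wide, 1109 bp downstream in an intron, with 41.5% and 0.517.

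The other genes with 2 flank peaks were Marcks, Fstl3, Phf21b, Nav2, Nr2c2ap and Zmynd8, besides Hes1, Ccnd1 and Ier2. Marcks, which encodes a substrate of protein kinase C, had 1 on either side of a start-site peak, 1149 bp wide upstream and 699 bp wide downstream, with ratios of 0.775 and 0.921, and both met the island thresholds. At Phf21b, Nav2 and Fstl3 both peaks lay downstream of the coding TSS, and at Nr2c2ap both lay upstream, with ratios of 0.0962 and 0.163. At Zmynd8, a reader of histone marks, the 2 peaks were nearest to different start sites of the gene, and had ratios of 0.144 and 0.102. The CpG content of peaks at 1 gene could thus be alike, as at Marcks, Nr2c2ap and Zmynd8, or differ, as at Ier2.

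Some flank peaks were near the start of a transcript that is not protein-coding. A start site of a noncoding transcript lay within 1000 bp of 58 of the 242 peaks (24.0%, 95% interval 19.0 to 29.7) and inside 20 of them (8.26%). Within 1000 bp, the share was 76.0% for peaks over a coding TSS, 64.9% for those at 1 to 1000 bp and 11.4% for those beyond 3000 bp. The transcripts nearest to the 58 peaks belonged to a noncoding gene in 27 cases and to a coding gene in 31, which was the nearest coding gene itself in 29. By type they were mostly processed transcripts without a reading frame (20), retained introns (11), antisense RNAs (9) and lincRNAs (9), and 3 were microRNA hairpins.

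The widest of the 20 peaks that held such a start site were those of Cic, Shc3, Marcks, Anp32a and Fam84b. At Cic, Shc3 and Anp32a the transcript was one of the gene itself, at Marcks it was the lincRNA 5930403N24Rik and at Fam84b it was 9930014A18Rik. The peak of Ercc1, 819 bp wide and 1899 bp upstream, held the start of the lincRNA D830036C21Rik and met the island thresholds. Among peaks chosen after their values were seen, that of Msi1, which encodes the RNA-binding protein Musashi-1 of neural stem cells, was 782 bp wide, lay 1380 bp downstream, and held the start of the antisense gene 4930430O22Rik. That near Thy1 lay 12 bp from the start of the lincRNA Gm39323, and that near Tmem107 held the start of the small nucleolar RNA gene Snord118.

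The annotation in use thus moved some peaks in and out of the flank. A start site of any RefSeq mRNA lay within 1000 bp of 36 of the 242 peaks (14.9%) and inside 10, and a curated one within 1000 bp of 11 and inside 4. The 4 were the peaks of Shc3, B430305J03Rik, Psmc2 and Msi1. Among the 11 were also those of Hes6 (405 bp from the curated site), Wnt5a (822 bp) and Spred1 (987 bp). A predicted RefSeq start site lay 287 bp from the flank peak of Kdm6b and 613 bp from the downstream one of Hes1. Neither GENCODE, coding or noncoding, nor the mRNAs of RefSeq had a start site within 1000 bp of 160 peaks (66.1%, 95% interval 59.9 to 71.8). Noncoding transcripts of RefSeq were not searched. With the curated RefSeq start sites in place of the GENCODE coding ones, 225 peaks fell in the window and 184 of them were shared, which is 76.0% of the 242 and 81.8% of the 225. With 1 start site per gene, 244 fell in it and 168 were shared, 69.4% of the 242 and 68.9% of the 244.

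Short sequence motifs were counted in the central 200 bp of each peak, on both strands, beside all 6911 peaks and beside 31396 RefSeq promoters of GRCm38.p6, each from 250 bases before to 50 bases after a gene start. A match says only that the letters are there. For 10 of the 13 motifs, the share in the flank was closer to that beyond 3000 bp than to that over a coding TSS. The E-box CANNTG, the general site of basic helix-loop-helix proteins, was in 158 of 242 (65.3%), against 54.0% of all peaks, 41.9% over a coding TSS, 69.4% beyond 3000 bp and 58.1% of promoters. The more specific E-box CACGTG, one form of CANNTG, was in 5 (2.07%), against 5.24% of all peaks and 5.26% of promoters, and the 5 were near Hk1, Phldb1, Slc2a2, Tac4 and Zbtb49.

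The short form of the site of nuclear factor I proteins, TTGGCA, was in 40 of 242 peaks (16.5%), compared with 10.9% of all peaks, 5.87% over a coding TSS, 18.2% beyond 3000 bp and 9.61% of promoters. Those of Jun, Srf, Setd1b and Marcks held it. The AP-1 site TGANTCA was in 16 (6.61%), compared with 4.47% of all peaks, 1.91% over a coding TSS, 8.16% beyond 3000 bp and 5.47% of promoters, and that of Kdm6b was among them. The TATA box TATAAA was in 20 (8.26%), against 3.95% of all peaks, 2.04% over a coding TSS, 6.69% beyond 3000 bp and 9.93% of promoters.

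Motifs that hold CpG or a run of G and C were also counted. The GC box GGGCGG was in 46 of 242 (19.0%), against 35.4% of all peaks, 57.8% over a coding TSS, 8.48% beyond 3000 bp and 31.3% of promoters. Among peaks of the flank that met the island thresholds it was in 24 of 48, and among the others in 22 of 194 (11.3%), while 9.2% of all peaks below the thresholds held it. The ETS motif CCGGAAG was in 7 (2.89%), against 6.95% of all peaks, 1.50% beyond 3000 bp and 6.40% of promoters. The YY1 core ATGGCGG was in 4 (1.65%, 95% interval 0.645 to 4.17), against 4.72% of all peaks, 0.95% beyond 3000 bp and 1.78% of promoters. The NRF1 core GCATGCGC was also in 4 (1.65%), with the same interval, which holds the share of all peaks, 2.36%. It was in 0.475% of peaks beyond 3000 bp and in 2.08% of promoters. None held the ZBTB33 core CTCGCGAG (95% upper bound 1.56%), and 0.738% of all peaks, within that bound, and 0.672% of promoters held it. The SOX motif ACAATGG, in 4 (1.65%, against 1.90% of all peaks and 2.40% of promoters), and the CCAAT box CCAAT, in 63 (26.0%, against 24.5% and 29.2%), were near the shares of the whole list.

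**Figure D5:**
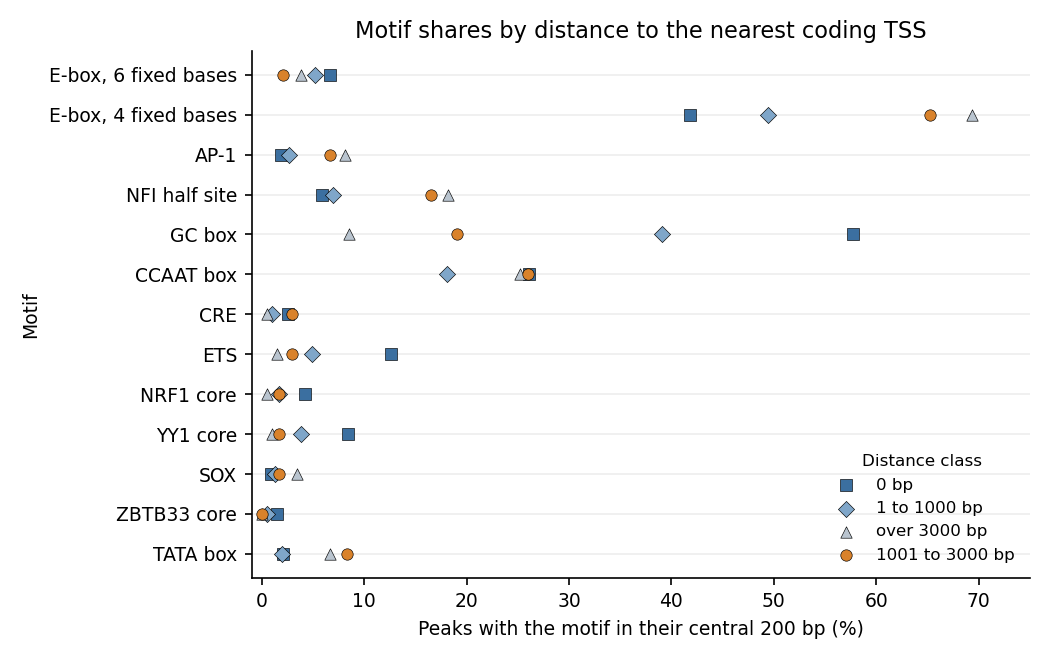
Share of peaks with each of 13 motifs in their central 200 bp (horizontal axis, %), by distance to the nearest coding TSS; orange circles are the 242 flank peaks. The GC box was in 19.0% of them and in 57.8% of peaks over a coding TSS, and the general E-box, with 4 fixed bases, in 65.3% and 41.9%.

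The share of the CRE did not fall steadily with the distance from the start site. This palindrome, TGACGTCA, is the cyclic AMP response element bound by CREB and related factors. It was in 7 of 242 flank peaks (2.89%, 95% interval 1.41 to 5.85), in 2.51% of peaks over a coding TSS, in 0.989% at 1 to 1000 bp and in 0.475% beyond 3000 bp. Over all peaks the share was 1.53% and over promoters 1.50%. In the whole peak, the palindrome was in 8 flank peaks (3.31%) and in 3.02% of all peaks, so the difference was smaller there. Of the 7 peaks, near Arl4c, Arsi, Gng7, Mxi1, Per1, Rnf122 and Tuba4a, 6 were below the island thresholds, which is 3.09% of 194. Of all peaks below the thresholds, 14 (0.435%) held the palindrome, and these 14 include the 6 of the flank. Counts this small carry wide intervals, the motif was singled out after its values were seen, and no test was made. The site stands in 30 bases of the peaks of Gng7 (chr10:81000064-81000093), Per1 (chr11:69097191-69097220), Mxi1 (chr19:53314319-53314348) and Rnf122 (chr8:31113378-31113407), shown on the plus strand of mm10 with the palindrome in capitals because it is the element these 4 loci share.
Gng7 CRE: gccccggggaaTGACGTCAcacacgtcagg
Per1 CRE: tgcctccgcttTGACGTCAcctccctctcc
Mxi1 CRE: tccgcctctcgTGACGTCAcgcgttgctga
Rnf122 CRE: cagccccgctcTGACGTCAttccagcttgc
Per1 is known as a gene that CREB can induce. All 4 peaks lay inside the gene they were nearest to. Gng7, Mxi1 and Rnf122 had no listed start-site peak, and Per1 had one.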

How the data were processed

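CUT&RUN libraries were made with the EpiCypher CUTANA kit. Per the submitters' processing notes and the study's methods, the authors demultiplexed with bcl2fastq 2.17.1.14, trimmed with Trimmomatic 0.32, mapped uniquely to mm10 with Bowtie2 2.1.0, filtered out poorly mapped reads with SAMtools 0.1.18 and called peaks with MACS2 2.2.8 in each library. They deposited 1 list of the peaks in both Setd1a libraries, as chromosome, start and end. How intervals of the replicates were joined and whether IgG served as the control are not given in the sources used here. Both decide which peaks exist and how wide they are.

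Peaks were compared with 52099 start sites of protein_coding transcripts on chromosomes 1 to 19 (GENCODE M21), and sequences were read from GRCm38.p6, the same assembly as mm10, with no peak past a chromosome end. Distances run from the nearer edge. Repeats are the soft-masked bases. Named peaks were all those nearest to a gene of the lists, the 10 widest, the 5 of highest and the 5 of lowest CpG ratio, 3 on each side of each window edge, the 5 widest over a noncoding start site and those of genes with 2 peaks. Peaks named for repeats, motifs, RefSeq or noncoding start sites outside this rule, and those under other observations, were chosen after their values were seen. The peaks and gene lists were chosen with earlier results of these data known. No test was made. Python 3.11.15, pandas 2.3.3, pysam 0.24.0 and samtools 1.23.1 were used, and distances, sides and motif searches were tested on simulated intervals and sequences. Alternatives covered the set of start sites, the distance measure, peak width, merging, sex chromosomes, the window and the thresholds. One sequence is not reported here.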

Additional observations from a re-analysis of the deposited data

How the results depend on the processing

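The 8 summary values of the flank peaks were recomputed under 12 other settings each, or 13 where a result had one of its own. RefSeq start sites and the removal of repeat-rich peaks were added after seeing the data. Relative to the interval of the reported value, or to 1.5 times for the number of peaks, 19 values moved and the rest stayed. With 1 start site per gene, 34.0% of the peaks lay upstream, 29.9% had a noncoding TSS within 1000 bp, median GC was 55.3%, the median CpG ratio 0.419, and 34.4% met the island thresholds. With CCDS transcripts alone, 28.0% met them. With distance from the midpoint, 29.8% had a noncoding TSS within 1000 bp and 46.7% a start-site peak of their gene. The latter share was 25.9% with peaks merged within 1000 bp and 19.4% when that peak had to cover a coding TSS. Peaks of at least 300 bp had a median width of 511 bp. The inner window, up to 2000 bp, held 139 peaks, with a median ratio of 0.373 and 25.9% at the thresholds, and the outer one held 103, with 0.235 and 11.7%. Stricter thresholds, 55% and 0.65, were met by 14.0%, and a noncoding TSS lay inside 8.26%. In whole peaks, 10 of 13 motif shares rose beyond their interval, since more bases were searched. No paired analysis was possible because both replicates were merged into 1 list before deposit, and for the same reason no replicate could be left out. The list gives no depth.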

Other observations

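The following 6 flank peaks, near genes outside the lists, were picked after their values were seen and stand for no group of genes. The peak near Aqp4, the water channel of astrocytes, was 601 bp wide and lay 1368 bp upstream of a coding TSS inside the gene, with a CpG ratio of 0.136 and no start-site peak. Near Bcan, which encodes the proteoglycan brevican, a peak of 633 bp lay 1812 bp upstream, with 0.32 and a start-site peak 1319 bp away, and it covered a predicted RefSeq start site of Bcan. Near Plpp3, a lipid phosphatase gene, a peak of 697 bp lay in intron 1, 1634 bp downstream, with 0.312 and no start-site peak. All 3 were below the island thresholds.

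The peak of Cpt1a, the carnitine transferase that brings fatty acids into mitochondria, was 890 bp wide in intron 1, 1614 bp downstream, covered a predicted RefSeq start site of Cpt1a, and met the island thresholds with a ratio of 0.865. Those of Hk1, a hexokinase gene, and Glud1, a glutamate dehydrogenase gene, lay 1974 and 1308 bp upstream of internal coding TSSs, with 0.165 and 0.221. Hk1 and Glud1 had a start-site peak, 19193 and 21677 bp from the flank peak, and Cpt1a had none within 1000 bp of a coding TSS of GENCODE.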
